A study of Mus musculus with 9 samples.

Results

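Desmosomes are spot-like junctions that couple the keratin filaments of neighbouring epithelial cells. The study compared mouse mammary tumour organoids after Cre was delivered to floxed or to normal Cdh1, the gene for E-cadherin. The genes described here are 10 desmosome genes chosen by name: the desmogleins Dsg2 and Dsg3, the desmocollins Dsc2 and Dsc3, the plakophilins Pkp1, Pkp2 and Pkp3, the plakins Dsp and Ppl, and the tetraspan membrane protein gene Perp. They are 10 of the 51912 genes in the count table, and all 10 passed the filter on low counts that left 17289 genes to test. The 5 E-cad-KO samples carried Cdh1fl/fl alleles and the 4 WT samples carried Cdh1+/+ alleles. All 9 samples carried the MMTV::PyMT transgene, whose MMTV promoter is active mainly in mammary epithelium, and the (R26)pCA::mT/mG reporter, which changes colour in cells where Cre has acted. All were of strain FVB/NJ. All organoids were exposed to adeno-Cre overnight, so Cre came from a virus and was not restricted by a cell type promoter, and were then kept for 48 h in collagen I gels with b-FGF2. No age is given for the mice. The samples are described as biological replicates but the animals are not named, so a p-value here refers to the spread among these 9 samples. The share of cells in which Cre had acted is not known from the counts.

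In a desmosome the extracellular parts of desmogleins and desmocollins bind across the gap between cells. Inside the cell their tails hold plakoglobin and plakophilins, and these hold desmoplakin, which grips the keratin filaments. Simple epithelia rely mainly on Dsg2, Dsc2 and Pkp2. Stratified epithelia and basal cells add Dsg3, Dsc3 and Pkp1, and the mammary gland has both a luminal layer and a basal layer with these programmes. E-cadherin belongs to the adherens junction, a neighbouring junction that is linked to actin instead.

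For no desmosome gene was the difference between E-cad-KO and WT organoids larger than the spread between libraries. By edgeR's quasi-likelihood test with Benjamini-Hochberg adjustment over all genes, 0 of 10 were called at an adjusted p under 0.05, and 0 of 10 had an unadjusted p under 0.05. DESeq2, which called 6.98% of all genes tested, and limma-voom, which called 2.94%, also called 0 of 10. So did edgeR without WT 1 and WT 4, the libraries that were highest and lowest for most of the 10 genes. However, that fit called only 79 genes in all, Cdh1 not among them. The main edgeR fit called 1.41% of all genes tested, with 0.908% (157 genes) higher in E-cad-KO and 0.503% (87 genes) lower. In that fit 16.7% had an unadjusted p under 0.05. For 0 of the 10 genes did the groups separate, against 8.11% of all genes tested. Of the 10 log2 fold changes 6 were positive, with a median of 0.082, while 48% of all genes tested were positive, with a median of -0.0095. With upper-quartile scaling the 244 calls over all genes became 274, of which 123 were higher and 151 lower. What varied was the level from library to library within each group. Dsg3 and Dsc3 ranged 7.24-fold and 5.47-fold between the highest and lowest library, whereas Pkp2 and Pkp3 ranged 1.47-fold and 1.49-fold.

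Library totals ran from 44890302 to 64763645 counts, and levels are given in CPM, counts scaled to a common library size with edgeR's TMM factors. Cdh1, the targeted gene, held 86.5, 118, 85.2, 87.3 and 79.0 CPM in E-cad-KO 1 to 5, against 246, 150.3, 201 and 159 CPM in WT 1 to 4 (log2 fold change -1.05, SE 0.16, edgeR adjusted p = 0.0275). The call was lost when E-cad-KO 1, 3, 4 or 5 or WT 3 was left out (edgeR adjusted p from 0.0644 to 0.0904). The Cdh1 groups did not overlap, and its log2 fold change lay between -1.16 and -0.89 in all 19 alternatives. Markers of luminal epithelium, which identify the labelled tissue, were present throughout, with summed levels of 4651 to 6018 CPM over 8 genes in E-cad-KO and 3911 to 5470 CPM in WT. WT 1 and WT 4 held the highest or the lowest value of several marker sums. WT 1 had the highest sums of 3 basal keratins (Krt5, Krt14 and Krt17) and of 12 squamous markers and the lowest sum of 10 fibroblast markers. WT 4 had the lowest sums of luminal markers, basal keratins and squamous markers. It also had the highest sums of fibroblast and endothelial markers and of the macrophage markers other than Cd14. WT 3 came next to WT 4 for fibroblast markers (332 against 374 CPM) and endothelial markers (13.1 against 14.6 CPM).

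The desmosomal cadherin genes lie side by side on chromosome 18 of GRCm38. They run from Dsc3 (ENSMUSG00000059898, 19960930 to 20002351, minus strand) and Dsc2 (ENSMUSG00000024331, 20030633 to 20059554, minus strand), past Dsc1, the Dsg1 genes and Dsg4, to Dsg3 (ENSMUSG00000056632, 20510274 to 20547459, plus strand) and Dsg2 (ENSMUSG00000044393, 20558074 to 20604521, plus strand). The other members are dispersed. Dsp (ENSMUSG00000054889) lies on chromosome 13 at 38151294 to 38198577, Perp (ENSMUSG00000019851) on chromosome 10 at 18845020 to 18857073 and Pkp1 (ENSMUSG00000026413) on chromosome 1 at 135871395 to 135919207. Pkp2 (ENSMUSG00000041957) and Ppl (ENSMUSG00000039457) lie on chromosome 16, at 16213318 to 16272712 and at 5086291 to 5132421, and Pkp3 (ENSMUSG00000054065) on chromosome 7 at 141078218 to 141090510. None lies on chromosome 8, which carries the floxed gene. Dsg2 and Dsp share 330 and 499 exonic bases with a gene on the other strand, Gm16090 and Gm10129, whose own counts were at most 1 and 19 in a library.

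Scaled for the length of all annotated exons, the 10 genes differed widely in level. Perp stood highest, at 491 ± 176 CPM per kb of exon (SD over 9 libraries). Pkp1 (41.5 ± 14.6) and Dsp (39.2 ± 13.6) followed, with overlapping ranges over the libraries (21.8 to 62.1 and 19.5 to 63.2). Pkp3 was at 26.6 ± 3.10 CPM per kb. The ranges of Dsg3 (21.2 ± 12.2) and Dsg2 (18.2 ± 3.34) also overlapped, with Dsc2 at 13.5 ± 5.24 and Pkp2 at 9.26 ± 1.11 CPM per kb. Dsc3 (5.42 ± 3.52) and Ppl (5.39 ± 1.55) were lowest. The smallest raw count of any member in any library was 658, for Dsc3 in E-cad-KO 1, where counting error alone is 3.90% of the value. Dsc3 differed 5.47-fold between its highest and lowest library.

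Dsg3, the desmoglein of basal and stratified epithelium and the target of antibodies in pemphigus vulgaris, varied most between libraries. Dsg3 held 88.7, 204, 227, 103 and 91.4 CPM in E-cad-KO 1 to 5, against 305, 175, 94.7 and 42.1 CPM in WT 1 to 4. The highest and the lowest value were both in WT, and the E-cad-KO range lay inside the WT range. Dsg3 averaged 143 ± 67.1 CPM over the E-cad-KO libraries (SD, n = 5) and 154 ± 114 CPM over the WT libraries (SD, n = 4), a log2 fold change of -0.11 (95% interval -1.35 to 1.13, edgeR adjusted p = 0.950). Its sign rested on single libraries: it was 0.46 without WT 1, 0.034 without E-cad-KO 1, 0.029 without E-cad-KO 5 and -0.42 without WT 4.

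Dsg2, the desmoglein found in all desmosome-bearing tissues, was much steadier. It held 153, 182, 183, 142 and 146 CPM in E-cad-KO 1 to 5, against 155, 168, 138 and 91.6 CPM in WT 1 to 4. All but WT 4 lay between 138 and 183 CPM. Dsg2 averaged 161 ± 19.9 CPM over the E-cad-KO libraries (SD, n = 5) and 138 ± 33.3 CPM over the WT libraries (SD, n = 4), with a log2 fold change of 0.22 (95% interval -0.14 to 0.59, edgeR adjusted p = 0.547). Without WT 4 the Dsg2 log2 fold change was 0.069.

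Dsc2, the widely expressed desmocollin, held 49.8, 98.6, 92.2, 57.3 and 47.5 CPM in E-cad-KO 1 to 5, against 122, 75.0, 57.0 and 41.7 CPM in WT 1 to 4. Its high libraries were the same as for Dsg3: WT 1 and E-cad-KO 2 and 3. The Dsc2 log2 fold change was -0.10 (95% interval -0.88 to 0.68, edgeR adjusted p = 0.925), and it turned to 0.26 without WT 1, to 0.0076 without E-cad-KO 1 and to 0.020 without E-cad-KO 5. Dsc3, the desmocollin of basal and stratified layers, held 11.6, 39.2, 33.5, 19.0 and 13.0 CPM in E-cad-KO 1 to 5, against 63.2, 52.9, 17.1 and 13.9 CPM in WT 1 to 4. WT 1 and WT 2 exceeded every E-cad-KO library, while WT 3 and WT 4 lay in the lower part of the E-cad-KO range. Dsc3 had the most negative log2 fold change of the 10 genes, -0.66, with an interval from -1.91 to 0.59 (edgeR adjusted p = 0.606). It stayed negative in every alternative fit, from -0.93 without WT 4 to -0.26 without WT 1, and was called in none of them.

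Perp, a p63 target whose membrane protein is needed for stable desmosomes in mouse epidermis, was the most abundant member. It held 738, 1178, 1355, 799.9 and 770.0 CPM in E-cad-KO 1 to 5, against 1509, 1108, 679.9 and 488 CPM in WT 1 to 4. The groups interleaved, with WT 1 highest and WT 4 lowest. Perp averaged 968 ± 280.2 CPM over the E-cad-KO libraries (SD, n = 5) and 946 ± 456 CPM over the WT libraries (SD, n = 4), a log2 fold change of 0.033 (95% interval -0.72 to 0.79, edgeR adjusted p = 0.977). Its sign turned without E-cad-KO 2 (-0.045), E-cad-KO 3 (-0.12), WT 3 (-0.097) or WT 4 (-0.18).

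**Figure D1:**
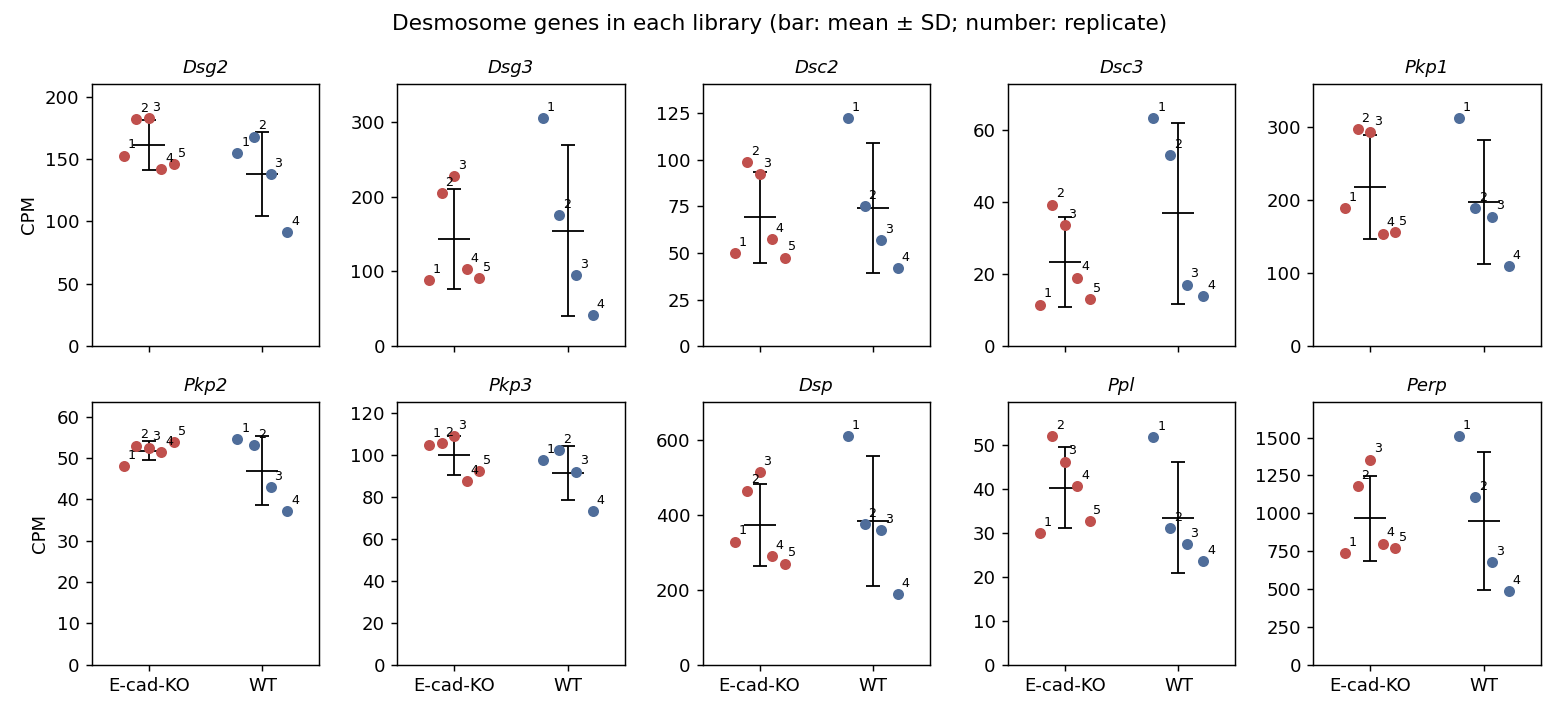
Level of each desmosome gene in CPM (vertical axis, starting at 0) in the 5 E-cad-KO libraries (left, red) and the 4 WT libraries (right, blue). Each point is a library with its replicate number, and black bars give the mean ± SD. For all 10 genes the groups overlap, and WT 4 is the lowest library for all but Dsc3, where E-cad-KO 1 is lowest at 11.6 CPM.

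The plakophilins, armadillo proteins that cluster the cadherin tails and recruit desmoplakin, also differed from each other in their spread between libraries. Pkp1, the plakophilin of stratified epithelium, held 189, 297, 293, 154 and 156 CPM in E-cad-KO 1 to 5, against 312, 189, 177 and 109.6 CPM in WT 1 to 4. E-cad-KO 2 and 3 and WT 1 again stood above the rest. The Pkp1 log2 fold change was 0.14 (95% interval -0.58 to 0.87, edgeR adjusted p = 0.877), running from -0.054 without WT 4 to 0.46 without WT 1.

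Pkp2, which is also the main plakophilin of heart muscle, held 48.1, 53.0, 52.5, 51.5 and 53.9 CPM in E-cad-KO 1 to 5, against 54.6, 53.1, 42.9 and 37.2 CPM in WT 1 to 4. The 5 E-cad-KO libraries were tightly grouped, with a coefficient of variation of 4.33%. WT 1 and WT 2 lay at their upper end, and WT 3 and WT 4 under them all. Pkp3, a plakophilin of most epithelia, held 105, 106, 109, 87.6 and 92.3 CPM in E-cad-KO 1 to 5, against 97.5, 102, 92.0 and 73.1 CPM in WT 1 to 4. For Pkp3 WT 4 alone lay outside the E-cad-KO range. Log2 fold changes were 0.14 for Pkp2 (95% interval -0.09 to 0.38, edgeR adjusted p = 0.554) and 0.13 for Pkp3 (95% interval -0.10 to 0.36, edgeR adjusted p = 0.580). For these 2 genes the intervals leave room only for folds between 0.935 and 1.30, whereas the other 8 intervals reach 1.5-fold in at least 1 direction.

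Dsp encodes desmoplakin, the plakin that links the plaque to keratin filaments. It held 329, 465, 516, 290.5 and 270.1 CPM in E-cad-KO 1 to 5, against 610.5, 376, 359 and 189 CPM in WT 1 to 4. WT 1 was highest and WT 4 lowest, with all 5 E-cad-KO libraries between them. Dsp averaged 374 ± 109.8 CPM over the E-cad-KO libraries (SD, n = 5) and 384 ± 173 CPM over the WT libraries (SD, n = 4), a log2 fold change of -0.036 (95% interval -0.77 to 0.70, edgeR adjusted p = 0.974). The sign was positive without WT 1 (0.29) or without E-cad-KO 1, 4 or 5 (0.018, 0.046 and 0.073), and the value was -0.26 without WT 4.

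The promoter of Dsp is shown because Dsp encodes the plaque protein that all desmosomes need, and it was the only member of the 10 with an entry in the RefSeq promoter table used. The 250 bases before its start (GRCm38.p6, chr13:38151044-38151293, plus strand, RefSeq) are given from 5′ to 3′, with matches to the GC box GGGCGG on either strand in capitals.
Dsp promoter: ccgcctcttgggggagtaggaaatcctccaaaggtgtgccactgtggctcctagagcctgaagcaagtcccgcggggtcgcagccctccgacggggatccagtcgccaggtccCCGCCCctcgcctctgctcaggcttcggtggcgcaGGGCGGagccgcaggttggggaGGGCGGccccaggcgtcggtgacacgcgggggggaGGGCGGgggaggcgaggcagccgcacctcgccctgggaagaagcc
The window held 4 matches to the GC box, 3 of them on the strand shown, and a GC box occurred in 32.7% of all 32851 promoter windows of the same length. Its GC content was 72.4%, and the median over all windows was 52.4%. The TATA box letters TATAAA were searched on both strands with 0 matches, and they occurred in 12.4% of all windows. The E-box letters CAGGTG, the AP-1 letters TGANTCA and the Grainyhead letters AACCNGTT also had 0 matches, and they occurred in 17.2%, 6.75% and 1.79% of all windows.

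Ppl encodes periplakin, a plakin of desmosomes and of the cornified envelope of skin. It held 29.9, 51.9, 46.1, 40.6 and 32.6 CPM in E-cad-KO 1 to 5, against 51.7, 31.0, 27.3 and 23.4 CPM in WT 1 to 4. All 5 E-cad-KO libraries lay above WT 3 and WT 4, and WT 1 lay with the highest of them. Ppl had the most positive log2 fold change of the 10, 0.27 (95% interval -0.29 to 0.83, edgeR adjusted p = 0.649), and it was 0.57 without WT 1 and 0.13 without WT 4. The fit without WT 1 gave the smallest adjusted p of any member in any alternative, 0.179, with an unadjusted p of 0.0141.

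**Figure D2:**
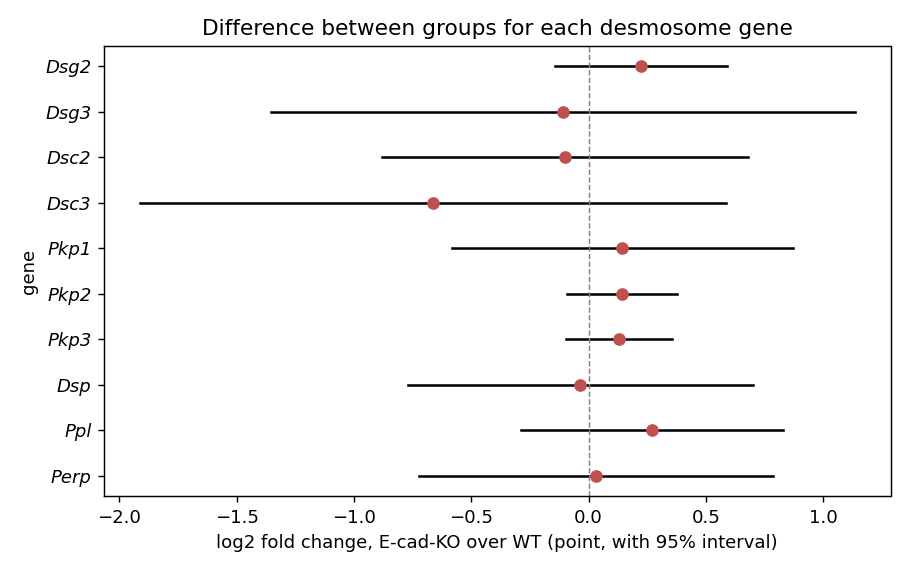
Log2 fold change of each desmosome gene, E-cad-KO over WT (horizontal axis), with the edgeR estimate as a point and its 95% interval as a line. Every interval includes 0, and the intervals are narrowest for Pkp2 and Pkp3 and widest for Dsc3 and Dsg3.

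With 1 library left out at a time, the lowest log2 fold change came without WT 4 for all 10 genes. The highest came without WT 1 for 8 genes and without WT 2 for Dsg2 and Pkp3. The same few libraries ranked at the ends for nearly every member. WT 1 was the highest library for 7 of the 10 genes, E-cad-KO 3 for 2 and E-cad-KO 2 for 1. E-cad-KO 2 was among the 3 highest libraries for 9 genes, and WT 1 and E-cad-KO 3 for 8 genes each. WT 4 was the lowest library for 9 of 10, and E-cad-KO 1 was lowest for Dsc3. The summed level of the 10 genes was 1672 to 2907 CPM in E-cad-KO and 1109 to 3281 CPM in WT.

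**Figure D3:**
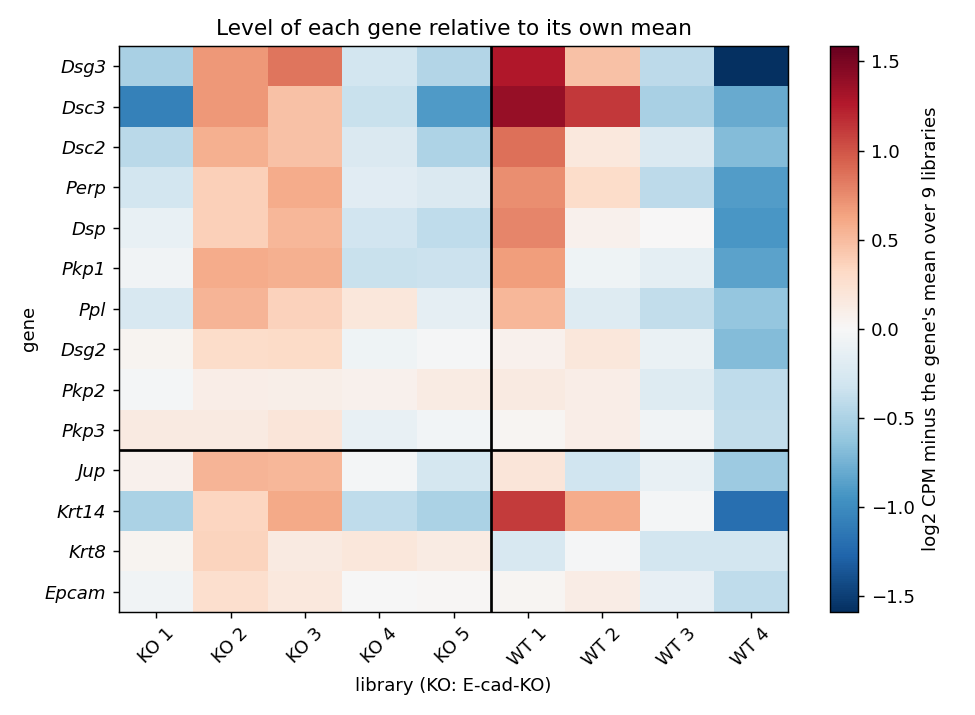
Log2 CPM of each gene (rows) minus that gene's mean over the 9 libraries, in E-cad-KO 1 to 5 and WT 1 to 4 (columns, separated by a vertical line), with the 10 desmosome genes above the horizontal line and Jup, Krt14, Krt8 and Epcam under it. WT 1, E-cad-KO 2 and E-cad-KO 3 are red and WT 4 is blue for Dsg3, Dsc3, Dsc2, Perp, Dsp, Pkp1 and Ppl, while Pkp2 and Pkp3 are pale throughout.

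The spread within groups was large for 7 of the 10 genes by the standard of this data set. Among the 8115 tested genes with a mean of at least 20 CPM, the median SD of log2 CPM within groups was 0.12, and 95% of these genes lay under 0.35. Dsg3 and Dsc3 both had an SD of 0.94, Dsc2 0.57, Perp 0.56, Dsp 0.55, Pkp1 0.54 and Ppl 0.41. Dsg2 lay at 0.29, and Pkp2 and Pkp3 at 0.18 each. The SD was larger among the 4 WT libraries than among the 5 E-cad-KO libraries for all 10 genes, which was also the case for 66.5% of the 8115 genes. Within E-cad-KO the SD of log2 CPM ran from 0.06 for Pkp2 to 0.79 for Dsc3, and within WT from 0.22 for Pkp3 to 1.23 for Dsg3.

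The makeup of the cadherin families also differed between libraries. Among desmogleins, by CPM per kb of exon, Dsg3 made up 39.9% to 55.1% in E-cad-KO (mean 46.3% ± 6.70, SD, n = 5) and 34.7% to 60.9% in WT (mean 47.3% ± 11.5, SD, n = 4). The share of Dsg2 was 37.4% to 58.0% in E-cad-KO and 26.1% to 63.7% in WT. Dsg3 was the larger of the pair in E-cad-KO 2 and 3 and in WT 1 and 2, and Dsg2 in the other 5 libraries. Among desmocollins Dsc2 was the major form in every library, at 69.4% to 81.0% in E-cad-KO and 58.1% to 75.0% in WT. Among plakophilins Pkp1 was the major form in every library, at 46.6% to 60.2% in E-cad-KO and 44.6% to 62.6% in WT, and Pkp2 stayed between 9.98% and 15.1%. For each of these shares the groups overlapped.

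**Figure D4:**
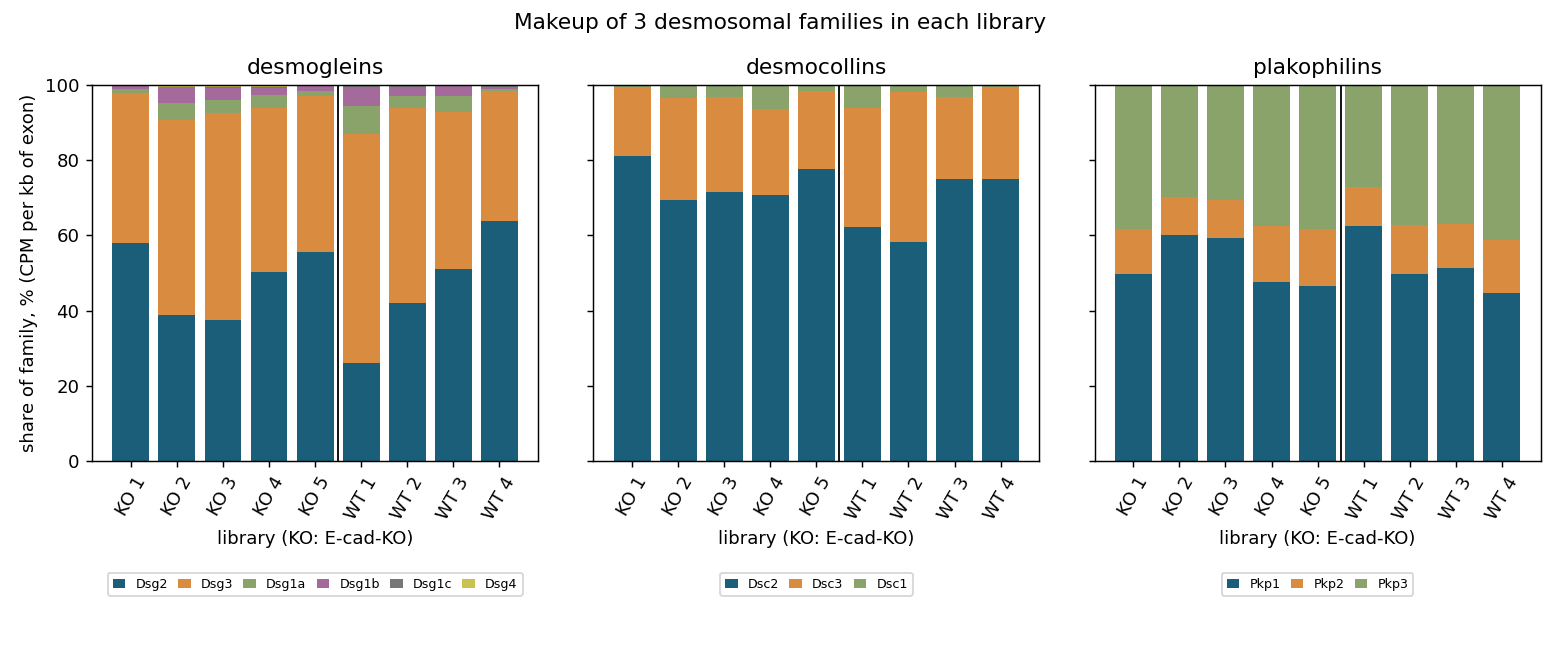
Share of each gene in its family by CPM per kb of exon (vertical axis, in percent of the family) in E-cad-KO 1 to 5 and WT 1 to 4 (horizontal axis) for desmogleins, desmocollins and the 3 plakophilins named. WT 1 has the smallest Dsg2 share (26.1%) and WT 4 the largest (63.7%), and the 5 E-cad-KO libraries lie between them.

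Likeness between genes is given as Pearson's r over the 9 libraries after each log2 CPM value was centred on its group's mean. It describes these libraries, which share their RNA and scaling, and carries no test. Each member followed the mean of the other 9 members, with r from 0.786 for Pkp3 and 0.816 for Pkp2 to 0.995 for Dsg3. Leaving out WT 1 and WT 4, r was 0.994 for Dsg3 and 0.969 for Perp but 0.505 for Pkp2. Of 10750 other named genes with at least 5 CPM, those closest to the mean of the members included Nectin2 (r = 0.997), Cwh43 (0.995), Hspa9 (0.995) and Lypd3 (0.993). Nectin2 encodes an immunoglobulin-type adhesion protein, Hspa9 a mitochondrial chaperone and Lypd3 a cell surface protein of squamous epithelium. Such likeness was common, since 5.93% of the 10750 genes had an r over 0.9. It does not reflect amplitude: Cwh43 ranged 5.60-fold over the libraries and Hspa9 1.19-fold. Counts of Nectin2 and Lypd3 may include reads of genes that overlap them on the other strand.

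Krt14, a basal keratin to whose filaments desmosomes attach, was singled out after its values were seen. It held 3049, 5437, 6529, 3252 and 3045 CPM in E-cad-KO 1 to 5, against 9278, 6454, 4223 and 1874 CPM in WT 1 to 4. The Krt14 order placed WT 1 highest and WT 4 lowest, as for most desmosome genes. Likeness to Krt14 was 0.994 for Dsg3, 0.980 for Perp and 0.968 for Dsp, and it was lowest for Pkp2 (0.853) and Pkp3 (0.848). Without WT 1 and WT 4 it was 0.994 for Dsg3, 0.985 for Perp, 0.910 for Dsp, 0.731 for Pkp3 and 0.512 for Pkp2. Likeness to Krt8, a luminal keratin also picked after its values were seen, ran from 0.307 for Dsp to 0.691 for Dsc3. Likeness of luminal genes to the mean of the members was uneven. It was 0.510 for Krt8 and lower, 0.455, for Krt18. Higher values were 0.967 for Krt7, 0.951 for Cldn3, 0.912 for Ehf, 0.907 for Krt19, 0.757 for Cldn7 and 0.720 for Elf5. Without WT 1 and WT 4 the order changed, with 0.724 for Krt8, 0.480 for Krt18 and 0.403 for Elf5. The others were then 0.962 for Krt7, 0.929 for Cldn3, 0.887 for Krt19, 0.785 for Ehf and 0.704 for Cldn7. Likeness of single members to Epcam, a luminal and basal epithelial surface protein gene, ran from 0.740 for Ppl to 0.954 for Dsg2.

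**Figure D5:**
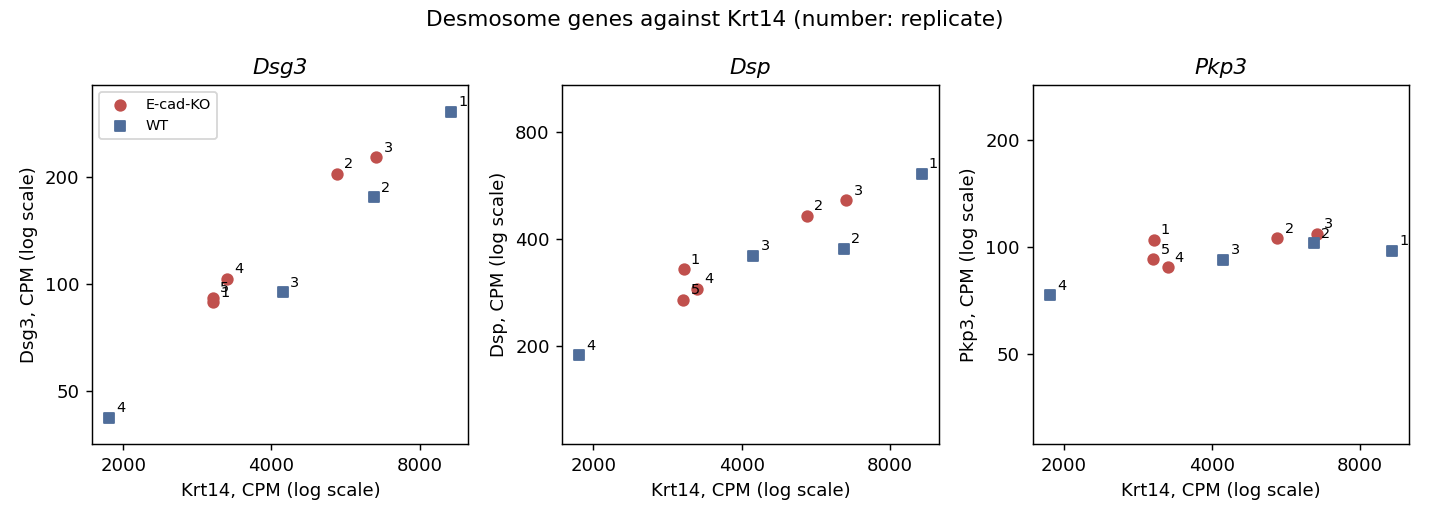
Levels of Dsg3, Dsp and Pkp3 (vertical axes, CPM, log scale spanning the same fold in each panel) against Krt14 (horizontal axis, CPM, log scale) in the 5 E-cad-KO libraries (red circles) and the 4 WT libraries (blue squares), numbered by replicate. Dsg3 climbs with Krt14 in both groups and spans 7.24-fold over the 9 libraries, while Pkp3 spans 1.49-fold.

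Markers of several cell types moved with this order of libraries. Sums over 12 squamous markers were 533 to 2281 CPM in E-cad-KO and 193 to 3591 CPM in WT. Those over 9 basal or myoepithelial markers were 3677 to 8432 CPM in E-cad-KO and 2552 to 12480.5 CPM in WT. Both sums were lowest in WT 4 and highest in WT 1. Krt6a, Krt6b and Krt16 carried most of the squamous sum. Krt1, Krt10, Ivl and Cnfn were lowest in E-cad-KO 5, and Sprr1a and Sbsn in E-cad-KO 1. The other squamous markers were lowest in WT 4. Krt5, Krt14 and Krt17 carried most of the basal or myoepithelial sum, and that list was split. Acta2, Myh11, Cnn1, Oxtr and Mylk, of the same list, summed to 80.8 to 153 CPM in E-cad-KO and 50.4 to 194 CPM in WT. All 5 were lowest in WT 1, and 4 of them were highest in WT 4. The basal and macrophage lists were divided in this way after their values were seen. Fibroblast markers went the other way, at 138 to 234 CPM in E-cad-KO and 69.9 to 374 CPM in WT, with WT 1 lowest and WT 4 highest. Macrophage markers summed to 346 to 409 CPM in E-cad-KO and 378 to 531 CPM in WT, but Cd14 carried most of that sum and was lowest in WT 4, at 167 CPM. The other 9 macrophage markers summed to 25.6 to 151 CPM in E-cad-KO and 17.4 to 364 CPM in WT, lowest in WT 1 and highest in WT 4. The endothelial markers summed to 5.68 to 9.22 CPM in E-cad-KO and 7.78 to 14.6 CPM in WT, again highest in WT 4. No T cell marker reached 1 CPM in any library, and Cd3e had 0 counts. By edgeR 0 members of these lists were called. The unadjusted p was under 0.05 for 5 of 8 luminal, 3 of 12 squamous and 2 of 6 tested endothelial markers. Over all genes tested that share was 16.7%. With median-of-ratios or upper-quartile scaling edgeR called the luminal marker Cldn7, among 251 and 274 calls over all genes. DESeq2 called 4 luminal markers (Cldn7, Elf5, Krt18 and Krt8) and 1 endothelial marker (6.98% of all genes tested). limma-voom called 3 luminal markers (Cldn7, Elf5 and Krt8, against 2.94%). Of these luminal markers Elf5 was lower in E-cad-KO and the others higher. The part of these cell types in the levels of the desmosome genes was not tested. In RNA from whole gels, fewer cells of a type and less RNA per cell cannot be told apart.

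Set against Epcam in the same library, the members kept unequal ranges. The ratio to Epcam ranged 5.37-fold over the 9 libraries for Dsg3, 5.16-fold for Dsc3, 2.55-fold for Dsc2, 2.40-fold for Dsp, 2.29-fold for Perp and 2.11-fold for Pkp1. It ranged 1.77-fold for Ppl, 1.35-fold for Dsg2, 1.24-fold for Pkp3 and 1.22-fold for Pkp2. WT 4 had the lowest ratio for Dsg3, Dsg2, Pkp1, Dsp and Perp, but not for Dsc2, Dsc3, Pkp2, Pkp3 or Ppl.

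Of 9 other desmosome genes, 0 were called by edgeR, DESeq2 or limma-voom. In edgeR 0 had an unadjusted p under 0.05, against 16.7% of all genes tested. The log2 fold change was positive for 5 of them (median 0.11). Jup encodes plakoglobin, which binds desmosomal cadherins and, in adherens junctions, E-cadherin. It held 122, 169, 167, 114 and 96.4 CPM in E-cad-KO 1 to 5, against 133, 93.6, 107 and 78.5 CPM in WT 1 to 4. E-cad-KO 2 and 3 were above all other libraries and the remaining values interleaved. Jup had a log2 fold change of 0.38 (SE 0.20, edgeR adjusted p = 0.388), and Pkp4, a plakophilin relative found also at adherens junctions, one of 0.18 (SE 0.13, edgeR adjusted p = 0.512). Dsg1a, a desmoglein of the upper layers of skin, held 1.81 to 14.4 CPM in E-cad-KO and 0.529 to 30.1 CPM in WT (edgeR adjusted p = 0.791). Dsg1a, Dsg1b and Dsg1c are related copies. How the authors' counting treated reads that fit more than 1 of them is not given.

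Of 10 genes that regulate desmosomes, 0 were called by edgeR or limma-voom and 1 by DESeq2 (6.98% of all genes tested). In edgeR 1 had an unadjusted p under 0.05, against 16.7% of all genes tested. The log2 fold change was positive for 9 of the 10 (median 0.10), and for 8 with upper-quartile scaling. Atp2a2, the calcium pump of the endoplasmic reticulum that is mutated in human Darier disease, in which desmosomes fail, had the smallest p (log2 fold change 0.29, SE 0.09, edgeR adjusted p = 0.144). It was the gene that DESeq2 called (adjusted p = 0.0445). It averaged 156 ± 12.6 CPM over the E-cad-KO libraries (SD, n = 5) and 127 ± 16.3 CPM in WT (SD, n = 4). Prkca, a kinase that makes desmosomes more dissociable, stood at 0.17 (edgeR adjusted p = 0.367), and Adam10, a protease that sheds Dsg2, at 0.15 (edgeR adjusted p = 0.552). Atp2a2 and Prkca each share exonic bases with a gene of the opposite strand.

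Keratins form the filaments to which desmosomes attach. Of 4 simple epithelial keratins, 0 were called by edgeR, 2 by DESeq2 (6.98% of all genes tested) and 1 by limma-voom (2.94%). In edgeR 3 had an unadjusted p under 0.05, against 16.7% of all genes tested. Those 3 had a positive log2 fold change, and the median over the 4 was 0.34. Krt8 averaged 1521 ± 123 CPM over the E-cad-KO libraries (SD, n = 5) and 1164 ± 110.2 CPM in WT (SD, n = 4), with every E-cad-KO library above every WT library (log2 fold change 0.39, SE 0.08, edgeR adjusted p = 0.0530). Krt8 lay at the threshold: edgeR with a filter of at least 1 count (adjusted p = 0.0435) or of 1 CPM in 4 libraries (0.0413), limma-voom (0.0347), DESeq2 (0.000369) and edgeR without WT 2 (0.0460) called it. Krt18, its filament partner, stood at 0.30 (edgeR adjusted p = 0.120) and was called by DESeq2 (adjusted p = 0.0171), and Krt7 stood at 0.50 (edgeR adjusted p = 0.271). Krt7 and Krt8 each share exonic bases with a gene of the opposite strand.

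Of 11 keratins of basal and stratified epithelium, 10 were tested and 0 were called by edgeR, DESeq2 or limma-voom. In edgeR 2 had an unadjusted p under 0.05, against 16.7% of all genes tested. All 10 had a negative log2 fold change (median -0.45), with median-of-ratios and upper-quartile scaling too. WT 1 was the highest library for all of them but Krt15. For Krt14, Krt17, Krt6a, Krt6b, Krt16 and Krt4 the other WT libraries lay within or under the E-cad-KO range. Krt10 stood at -0.56, Krt1 at -2.22 and Krt15 at -0.57 (edgeR adjusted p = 0.223, 0.247 and 0.413). Their levels were low, at most 7.27, 15.3 and 5.88 CPM. Without WT 4 edgeR called Krt10 (log2 fold change -0.74, adjusted p = 0.0487). Krt14 had a log2 fold change of -0.36 (SE 0.43, edgeR adjusted p = 0.747), which was 0.031 without WT 1. Hemidesmosomes anchor the same keratins to the basement membrane. Of 9 hemidesmosome genes, 0 were called by edgeR, DESeq2 or limma-voom, and 7 were positive (median 0.076). In edgeR 1 had an unadjusted p under 0.05, against 16.7% of all genes tested. Dst, the hemidesmosomal plakin relative of desmoplakin, stood at 0.15 (SE 0.06, edgeR adjusted p = 0.260), Cd151, a tetraspanin, at 0.11 and the collagen gene Col17a1 at -0.44 (edgeR adjusted p = 0.452 and 0.661). Dst and Cd151 share exonic bases with genes of the opposite strand, as does Krt10.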

How the data were processed

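RNA of 9 samples was sequenced. The table as deposited holds raw gene counts, 1 column per sample, without normalisation. Per the labels' protocols, RNA came from frozen whole gels by the RNeasy kit, and the library kit was the stranded TruSeq mRNA kit. The submitters' processing notes name GRCm38 and the tools Bowtie2, TopHat2 and HTSeq. Their versions, the annotation release and the strand setting are not given in the sources. Of 51912 genes, 51633 had a symbol in the name table. Every row named a gene. Positions, exon lengths (all annotated exons merged) and overlaps came from GENCODE M21 on GRCm38, and the promoter from RefSeq (GRCm38.p6).

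The test was edgeR 4.0.16 (R 4.3.3): TMM factors, filterByExpr, robust quasi-likelihood F-test, group as the only term, Benjamini-Hochberg adjustment over 17289 genes, two-sided. SE is the log2 fold change over the square root of F, and 95% intervals use its degrees of freedom. One CPM was 44.2 counts in the smallest library. Likeness and SD used log2 CPM with a prior count of 2. The routines were tested on simulated counts. All pairs of libraries differed by more than sampling noise (smallest chi-square per degree of freedom 14.0 over 36 pairs). DESeq2 1.42.0, limma-voom (limma 3.58.1), other scalings, filters, a replicate block, a minimum fold of 1.2 and libraries left out were alternatives.

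The members, the gene lists and the decision to leave out WT 1 and WT 4 together were chosen with earlier results of these data known. Genes named are Cdh1, all members, the called genes and up to 3 others of smallest p in each further list, and the 5 genes most like the members, of which 1 is not reported here. Krt14, Krt8 and Epcam as partners, and the ratio to Epcam, were chosen after their values were seen.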

Additional observations from a re-analysis of the deposited data

Results flagged for a closer look

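Among 28 genes checked in each group for a library far from the others (56 checks, where chance flags about 1 in 20), 2 stood out and neither was a desmosome gene. Cdh1 in E-cad-KO 2 was at 118 CPM, and the nearest of the other E-cad-KO libraries was at 87.3 CPM. Krt8 in WT 2 was at 1328 CPM, with the nearest WT library at 1131 CPM.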

How the results depend on the processing

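The count of desmosome genes called was 0 in all 19 alternatives. Of 190 log2 fold changes of members under alternatives, 168 kept their sign and 22, over 5 genes, turned, all without a call. Over all genes the 244 calls became 1206 with DESeq2, 509 with limma-voom, 79 without both WT 1 and WT 4, 2 (edgeR, 822 at an unadjusted p under 0.05) against a minimum fold of 1.2, and 9 to 334 with 1 library left out: 29, 54, 28, 26 and 47 without E-cad-KO 1 to 5, and 122, 105, 9 and 334 without WT 1 to 4. Signs turned with limma-voom for Dsg3 (0.014). Without both WT 1 and WT 4 they turned for Dsg3 (0.086), Dsc2 (0.068) and Dsp (0.029). With 1 library left out, Dsg3 ran from -0.42 to 0.46, Dsc2 from -0.30 to 0.26, Dsp from -0.26 to 0.29, Perp from -0.18 to 0.36, Pkp1 from -0.054 to 0.46, Dsg1a from -1.06 to 0.39 and Krt14 from -0.64 to 0.031. The cause was not tested. Cdh1 was not called without both WT 1 and WT 4 (edgeR adjusted p = 0.0545) or against a minimum fold of 1.2 (0.150).

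Whether same-numbered libraries share animals or days is not stated. Their deviations from the group means correlated at -0.32, 0.23, -0.03 and 0.28 for numbers 1 to 4. Of these 4 E-cad-KO libraries, 1 correlated best with its own number. So few values cannot decide whether the libraries were paired. With the replicate number as a block, edgeR called 0 genes (2418 at an unadjusted p under 0.05). In that fit E-cad-KO 5 had no WT library of its number. Of the members, 2 had an unadjusted p under 0.05, Dsg2 (edgeR adjusted p = 0.342) and Pkp3 (edgeR adjusted p = 0.327), and signs turned for Dsg3 (0.30), Dsc2 (0.081), Dsp (0.15) and Dsg1a (0.41). Depth does not limit the members, whose smallest count was 658.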

Other observations

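Genes of the basal or myoepithelial list, chosen after their values were seen, did not all follow the desmosome genes from library to library. Over the 9 libraries, with values centred on the group means, likeness to the mean of the 10 desmosome genes was 0.985 for Krt14, 0.955 for Krt5 and 0.934 for the basal transcription factor gene Trp63. It was negative for contractile genes of that list, at -0.66 for the smooth muscle actin gene Acta2, -0.90 for the calponin gene Cnn1 and -0.93 for the myosin light chain kinase gene Mylk. Without WT 1 and WT 4 they stood at -0.19 for Acta2, -0.87 for Cnn1 and -0.88 for Mylk. Fibroblast markers with at least 5 CPM were negative too, from -0.57 for Col1a1 to -0.82 for Thy1. Without WT 1 and WT 4 the fibroblast markers ran from -0.073 for Col1a1 to -0.68 for Pdgfra. Which cells of the gels the contractile transcripts came from was not tested. Krt5, Mylk and Tgm1 share exonic bases with genes of the opposite strand. Among squamous and cornified layer genes, likeness was 0.980 for Krt16, 0.978 for the transglutaminase gene Tgm1 and 0.960 for Cdsn. Cdsn encodes corneodesmosin of the modified desmosomes of skin. Tgm1 and Cdsn were low in level, with means of 5.33 and 11.1 CPM over the 9 libraries.

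Cdsn reached 23.4 CPM in E-cad-KO and 23.5 CPM in WT. Dsc1, the desmocollin of the upper layers of skin, held 0.386 to 5.04 CPM in E-cad-KO and 0.292 to 11.7 CPM in WT.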
